A study of Mus musculus with 2 samples.

Results

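Mature neutrophils of the anaemic mouse spleen were 187 of the 16152 droplet barcodes that passed the quality limits. The chronic PHZ library held 120 of them among 6445 barcodes and the chronic bleeding library 67 among 9707. C57BL/6 mice were given PHZ or were bled every 3 days for 1 month to make them anaemic. PHZ is the usual short name of phenylhydrazine, which destroys circulating red cells; the labels do not spell it out. Live spleen cells were profiled by droplet-based 3' single-cell RNA sequencing with unique molecular identifiers (UMIs), with 1 library per treatment. The number of mice behind each library was not stated, and no library of untreated mice was analysed here.

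A barcode was a member if it had at least 1000 UMIs, 300 genes, at most 10% mitochondrial UMIs and under 20% haemoglobin UMIs. It also needed 50 or more UMIs of S100a8 and S100a9 together, 2 or more of Csf3r, Cxcr2 and Il1b, under 20 of the secondary granule genes Camp, Ngp and Ltf, and under 10 of the primary granule genes Mpo, Elane, Prtn3 and Ctsg. The members were thus chosen by the measured UMIs of those genes, whose levels are given as a description only. With 1 library per treatment no test between treatments was possible. Cells are not replicates, so the 95% intervals given with ratios and shares cover counting error only.

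Neutrophils are short-lived phagocytes that mature in bone marrow and, under stress, in the spleen, while their granules are filled in a fixed order. Primary granule genes are transcribed in promyelocytes, secondary granule genes in myelocytes and metamyelocytes, and receptors such as Csf3r (for granulocyte colony-stimulating factor) and Cxcr2 (for chemokines) in the late, post-mitotic cells. Mature cells carry much of their antimicrobial protein ready made and transcribe mainly cytokines, receptors and signalling genes.

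Members had similar depth in both libraries. The lowest, median and highest UMI counts of members were 1862, 4373.5 and 30532 with PHZ, and 1498, 4168 and 23432 with bleeding. The median member had 1628.5 genes, 0.202% mitochondrial and 1.21% haemoglobin UMIs with PHZ, against 1601 genes, 0.130% and 1.02% with bleeding. Members together held 650948 UMIs outside haemoglobin genes with PHZ and 340789 with bleeding, and all levels below are UMIs scaled to that sum (CPM). No member barcode occurred in both libraries, although 16 passing barcodes did.

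By the rule's own genes, PHZ members had more alarmin UMIs. S100a8 and S100a9, which together form the calcium-binding alarmin calprotectin, summed to a median of 538.5 UMIs (50 to 2916) in PHZ members and 363 (53 to 1459) in bleeding members. Csf3r, Cxcr2 and Il1b summed to a median of 45.5 (2 to 127) in PHZ members and 53 (16 to 88) in bleeding members. Camp, Ngp and Ltf reached at most 16 UMIs in a PHZ member and 2 in a bleeding member. At the alarmin limit, the 3 members nearest it had 50, 52 and 55 UMIs with PHZ and 53, 67 and 72 with bleeding, while the nearest barcodes below it had 45, 41 and 35 with PHZ and 43, 18 and 18 with bleeding. At the secondary granule limit, the nearest members had 16, 14 and 13 UMIs and the nearest barcodes outside 23, 25 and 27 with PHZ, against 2, 1 and 1 inside and 49, 67 and 131 outside with bleeding. The gap around that limit was wider in the bleeding library.

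**Figure D1:**
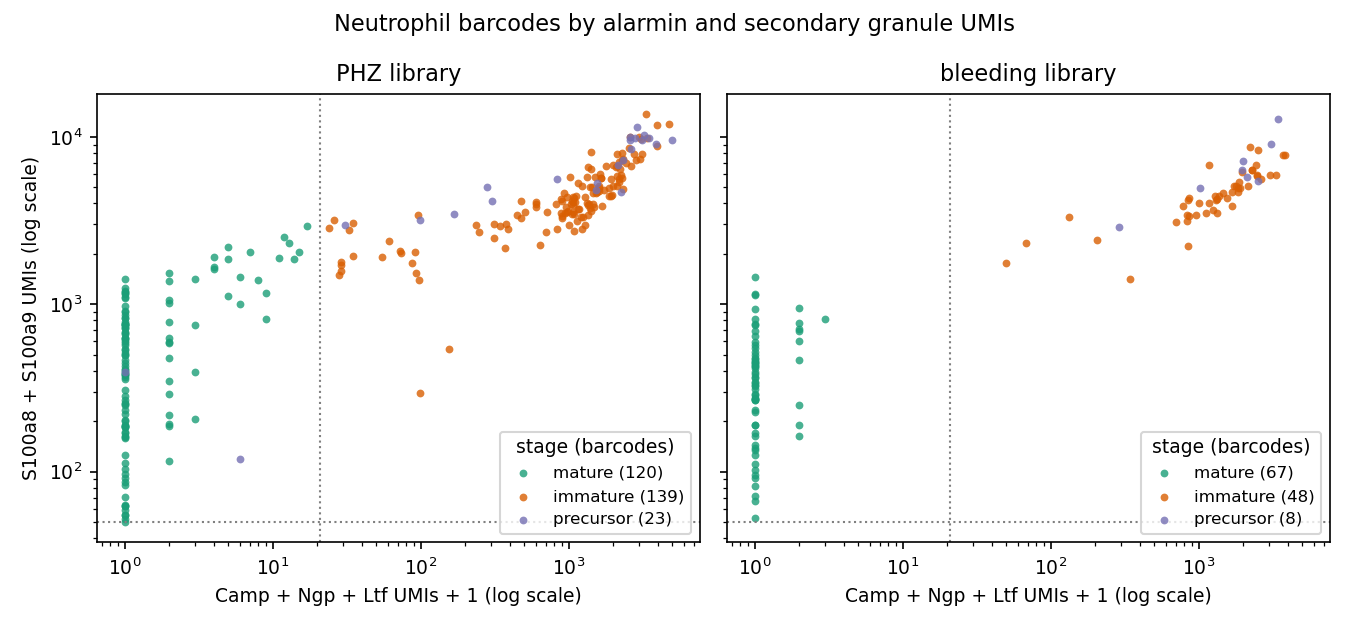
UMIs of S100a8 and S100a9 (vertical, log scale) against UMIs of Camp, Ngp and Ltf plus 1 (horizontal, log scale) for each neutrophil barcode, PHZ library left and bleeding library right, with dotted lines at the limits of the rule. PHZ members reach 16 UMIs of the secondary granule genes and run on into the immature cells, while bleeding members stop at 2.

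Neutrophil genes that the rule did not use were present. All 10 further neutrophil genes listed had UMIs in members of both libraries. They summed to 14932 CPM of all member UMIs in PHZ members and 6686 in bleeding members. The background barcodes of the same libraries held 162 and 76.8. Retnlg alone gave 7266 of the 9833 UMIs with PHZ and 1182 of the 2309 with bleeding, while Cxcr1 had 9 and 3. Mmp9, the gelatinase of tertiary granules, had UMIs in 111 of 120 PHZ members and 67 of 67 bleeding members. Itgam, the CD11b integrin chain, had UMIs in 118 and 60 of them. Ly6g, the antigen commonly used to stain mouse neutrophils, was found in 32 of 120 PHZ members and 7 of 67 bleeding members.

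Markers of B cells, T and NK cells or monocytes reached set limits in a small group of members. Mixed members were those with 2 or more UMIs of B cell markers, 2 or more of T and NK cell markers, or 5 or more of monocyte markers. There were 11 in each library, and they were large, with a median of 12765 UMIs against 4313 for the rest with PHZ, and 11664 against 3994.5 with bleeding. They held 22.4% of member UMIs with PHZ and 36.4% with bleeding. In the other members, B cell markers summed to 19.6 CPM of all UMIs with PHZ and 45.5 with bleeding, T and NK cell markers to 11.7 and 22.8, and monocyte markers to 112 and 141. Basophil and mast cell markers had 0 UMIs in all members. The macrophage genes C1qa, C1qb and C1qc had 0 in PHZ members and 21, 8 and 18 in bleeding members. Other markers were widespread. Those of red pulp macrophages had 2 or more UMIs in 78 of 120 PHZ and 54 of 67 bleeding members. Erythroid markers had 2 or more in all members, at 11650 and 13363 CPM of all UMIs, against 409824 and 337864 in background barcodes. The monocyte marker Csf1r had UMIs in 49 PHZ and 31 bleeding members. Whether mixed members are cell pairs or cells of another type was not tested. Ratios below are over all members, and a value without mixed members is added for many genes but not for all.

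Mature neutrophils took a larger share of the PHZ barcodes. They were 1.86% of passing barcodes (1.55 to 2.22) with PHZ and 0.690% (0.535 to 0.876) with bleeding, a ratio of 2.70 (1.98 to 3.69). Among barcodes under 20% haemoglobin they were 3.69% of 3248 with PHZ and 0.988% of 6778 with bleeding, a ratio of 3.74 (2.75 to 5.12). Without mixed members the share of passing barcodes was 1.69% with PHZ and 0.577% with bleeding, a ratio of 2.93 (2.11 to 4.12). These are shares of the cells loaded, so a change in other cell types moves them as well.

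Earlier stages also took larger shares of the PHZ library. Immature neutrophils, with 20 or more UMIs of Camp, Ngp and Ltf, were 139 barcodes with PHZ and 48 with bleeding, a ratio of shares of 4.36 (3.12 to 6.19). Without those that carried markers of other cells by the limits above they were 121 and 32, a ratio of 5.70 (3.83 to 8.69). Those limits are fixed UMI counts, and immature cells were deeper than mature ones, with medians of 14160 UMIs (PHZ) and 17066.5 (bleeding). Background barcodes held B cell markers at 691 CPM of all UMIs with PHZ and 2059 with bleeding. T and NK cell and monocyte markers were also higher in the bleeding background. The part of depth and background in the rise from 4.36, and in the precursor counts below, was not tested. Precursors, with 10 or more primary granule UMIs, were 23 with PHZ and 8 with bleeding, a ratio of 4.33 (1.87 to 11.2), but 4 and 0 with those carrying markers of other cells left out, too few to compare. Mature cells were 42.6% of neutrophils with PHZ (36.7 to 48.6) and 54.5% with bleeding (45.2 to 63.5), and the interval of the ratio, 0.781 (0.575 to 1.07), included 1. With the secondary granule limit at under 5 UMIs that ratio was 0.703 (0.514 to 0.968), and with no UMI of those genes, a limit chosen after the data were seen, it was 0.635 (0.448 to 0.906). Both limits are on genes of the rule. Members with 5 to 19 of those UMIs were 12 with PHZ and 0 with bleeding, so a limit of under 5 could only lower the ratio. These 2 values are thus a description only.

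Genes that separated mature from immature cells did so in the same direction in both libraries where they passed 2-fold. Of 1432 genes with enough UMIs in both stages, 425 were at least 2-fold higher in mature than in immature cells in both libraries (29.7%), 103 were at least 2-fold lower (7.19%), and 0 were 2-fold higher in 1 library and 2-fold lower in the other. The median log2 ratio of all tested genes was 0.55 with PHZ and 0.61 with bleeding. Stage was set by genes of the same cells, so this is a description of the axis.

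Late maturation genes were at least 2-fold higher in mature cells for 20 of 20 genes in both libraries. The median log2 ratios were 3.84 with PHZ and 4.23 with bleeding. The list holds Csf3r, Cxcr2 and Il1b, by which the rule chose mature cells. Wfdc17, a small secreted protein of the whey acidic protein family, was at 2475 CPM in mature and 17.1 in immature PHZ cells, and at 1050 and 4.55 CPM in those of the bleeding library. Pla2g7, which breaks down platelet-activating factor, was at 1003 CPM in mature and 12.5 in immature PHZ cells, against 1100 and 1.14 CPM with bleeding. Il13ra1, a chain of the interleukin-13 receptor, was at 260 and 1.67 CPM with PHZ, and with bleeding at 267 CPM in mature cells with 0 UMIs in immature ones. Prr5l, a partner of the kinase complex mTORC2, had 180 UMIs in mature PHZ cells and 151 in mature bleeding cells, with 0 UMIs in the immature cells of both. Immediate early genes followed the same course, with 12 of 12 at least 2-fold higher in mature cells. So did 10 of 13 cytokine receptors, a list that holds the rule gene Csf3r.

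Genes lower in mature cells included those of granule filling and division. Orm1, an acute phase glycoprotein, had 3 UMIs in mature and 569 in immature PHZ cells, and 0 and 218 in bleeding cells. Cebpe, the transcription factor of secondary granule formation, was at 18.4 CPM in mature and 537 in immature PHZ cells, and at 35.2 and 590 CPM in bleeding cells. Serpinb1a, an inhibitor of neutrophil serine proteases, was at 16.9 and 734 CPM with PHZ and at 35.2 and 708 with bleeding. Cybb, the catalytic chain of the NADPH oxidase, was at 217 CPM in mature and 2245 in immature PHZ cells, against 85.1 and 2054 CPM in bleeding cells. All 7 cell cycle genes with enough UMIs were at least 2-fold lower in mature cells. The early maturation list, which holds the rule gene Ngp, was 15 of 21 genes lower by 2-fold in both libraries. Its median was -1.98 with PHZ and -4.26 with bleeding, farther from 0 with bleeding.

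**Figure D2:**
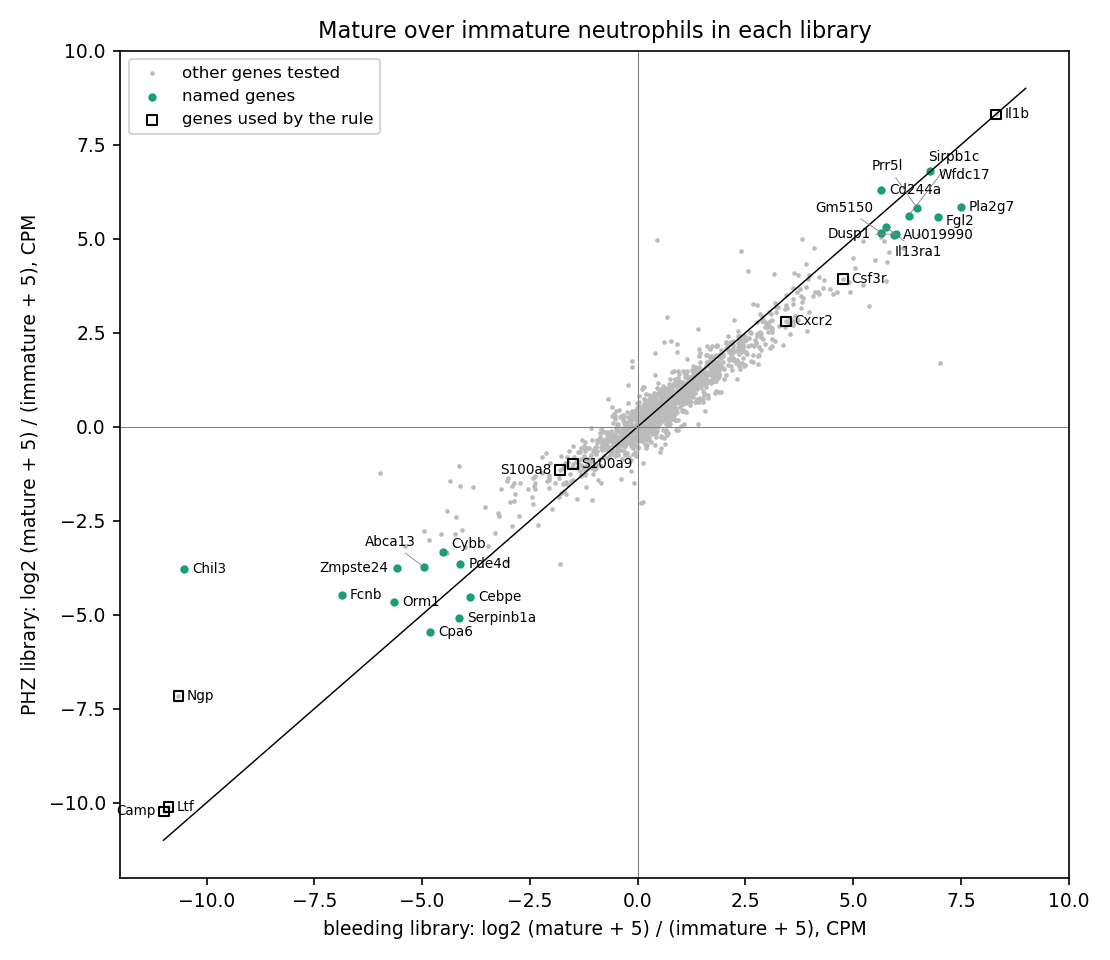
Log2 ratio of mature to immature neutrophils for each gene, each level with 5 CPM added, for PHZ (vertical) and bleeding (horizontal), with named genes in green and genes used by the rule as open squares. Genes fall along the diagonal. Of the named genes lower in mature cells, Chil3 and Fcnb lie above it and Cebpe and Serpinb1a below it. Fcnb had 7 UMIs in mature PHZ cells and 0 in mature bleeding cells. The mature PHZ level of Chil3 comes almost wholly from 3 mixed members.

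Between treatments few genes differed by much. In mature neutrophils 1753 genes had a mean of 100 CPM or more and at least 30 UMIs, and 36 of them were at least 2-fold higher in PHZ members (2.05%) and 30 at least 2-fold lower (1.71%), with a median log2 ratio of -0.05. Without mixed members 32 of 1704 genes were at least 2-fold higher (1.88%) and 28 lower (1.64%), and the median was -0.10. Of all tested genes 775 were above a ratio of 1 (44.2%), and 689 without mixed members (40.4%). The genes called both with and without mixed members were 23 of the 36 higher genes but 8 of the 30 lower genes.

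**Figure D3:**
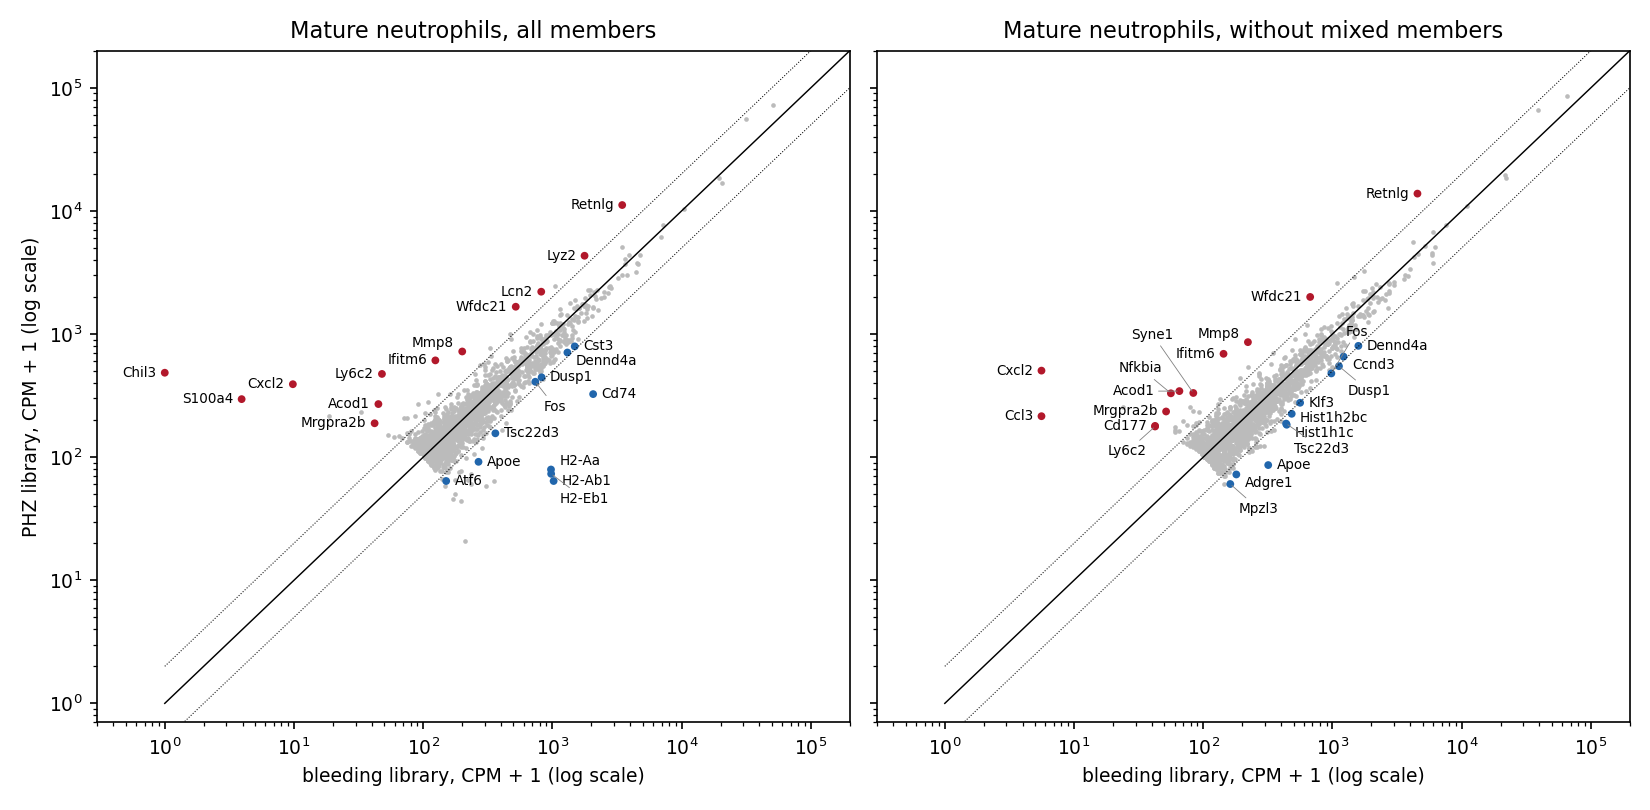
Level of each tested gene in PHZ members (vertical) and bleeding members (horizontal), in CPM plus 1 on log scales, with all members left and without mixed members right; dotted lines mark 2-fold and coloured points most of the named genes. Most genes lie between the 2-fold lines; the MHC class II genes, Chil3 and S100a4 stand apart with all members and are not named without mixed members.

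Genes of the preceding stage were higher in PHZ members. Of the 21 early maturation genes 16 were tested, 15 of these were above a ratio of 1 and 10 at least 2-fold higher, with a median log2 ratio of 1.39 and 1.27 without mixed members. Of the secondary granule list 9 genes were tested and all 9 were above 1, with a median of 1.35 and, without mixed members, 1.08 (7 of 8 above 1). Ngp belongs to both lists and was used by the rule, and genes such as Chil3 passed the level limit only through the PHZ library.

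Retnlg, a resistin-like secreted protein of neutrophils (chr16:48872621-48874496, plus strand, GRCm38), was the most abundant of them. Its lowest, median and highest levels per 10000 UMIs were 0, 24.1 and 699.7 in PHZ members and 0, 20.4 and 278.7 in bleeding members. The medians were close and the groups overlapped throughout, while the upper end of the PHZ members lay well above that of the bleeding members. Summed over members, Retnlg stood at 11162 CPM with PHZ and 3468 with bleeding, a ratio of 3.22 (3.03 to 3.43) and of 3.04 (2.84 to 3.25) without mixed members. The share of members with a UMI did not follow that order: at 1000 UMIs per cell it was 75.2% of 109 PHZ members and 82.1% of 56 bleeding members without mixed cells (unthinned 88.1% and 94.6%), and in B cell-marked barcodes 0.730% and 0%, at median depths of 4313, 3994.5, 5022 and 4625 UMIs. The difference between libraries was thus one of a PHZ upper tail rather than of the share of positive cells.

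Lcn2, the iron-siderophore binder lipocalin 2 stored in secondary granules (chr2:32384633-32388252, minus strand), ran from 0 through a median of 9.86 to 94.1 per 10000 in PHZ members and from 0 through 2.99 to 63.8 in bleeding members. Its sum was 2206 CPM with PHZ and 819 with bleeding, a ratio of 2.69 (2.37 to 3.07; 2.40 without mixed members). Mmp8, the neutrophil collagenase, was at 720 CPM in PHZ members and 200 in bleeding members, a ratio of 3.61 (2.80 to 4.73; 3.89 without mixed members). At 1000 UMIs per cell Mmp8 was found in 30.3% of PHZ and 12.5% of bleeding members without mixed cells (unthinned 50.5% and 35.7%), and in 0% of B cell-marked barcodes of either library. Wfdc21 was at 1665 CPM in PHZ members and 519 in bleeding members, a ratio of 3.21 (2.73 to 3.78; 2.98 without mixed members). Ifitm6, an interferon-induced transmembrane protein family member, was at 610 CPM in PHZ members and 123 in bleeding members, a ratio of 4.95 (3.59 to 6.97; 4.84 without mixed members). Its UMIs were in 70 of 120 PHZ members and 20 of 67 bleeding members. Mrgpra2b, a G protein-coupled receptor of neutrophils, had 122 UMIs in PHZ members and 14 in bleeding members, a ratio of 4.56 (2.62 to 8.59; 4.62 without mixed members). Cybb was at 217 CPM in PHZ members and 85.1 in bleeding members, a ratio of 2.55 (1.70 to 3.94), and 3 members held 56.7% of its UMIs with PHZ and 55.2% with bleeding. Without mixed members Cybb had 51 UMIs with PHZ and 10 with bleeding, a mean level below the limit of 100 CPM, and a ratio of 2.20 (1.10 to 4.86). Anxa1, the annexin that limits neutrophil recruitment, was at 908 CPM in PHZ members and 481 in bleeding members, a ratio of 1.89 (1.58 to 2.26; 1.63 without mixed members). Taldo1 was the early gene that was not above 1, at 1693 CPM in PHZ members and 1796 in bleeding members.

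**Figure D4:**
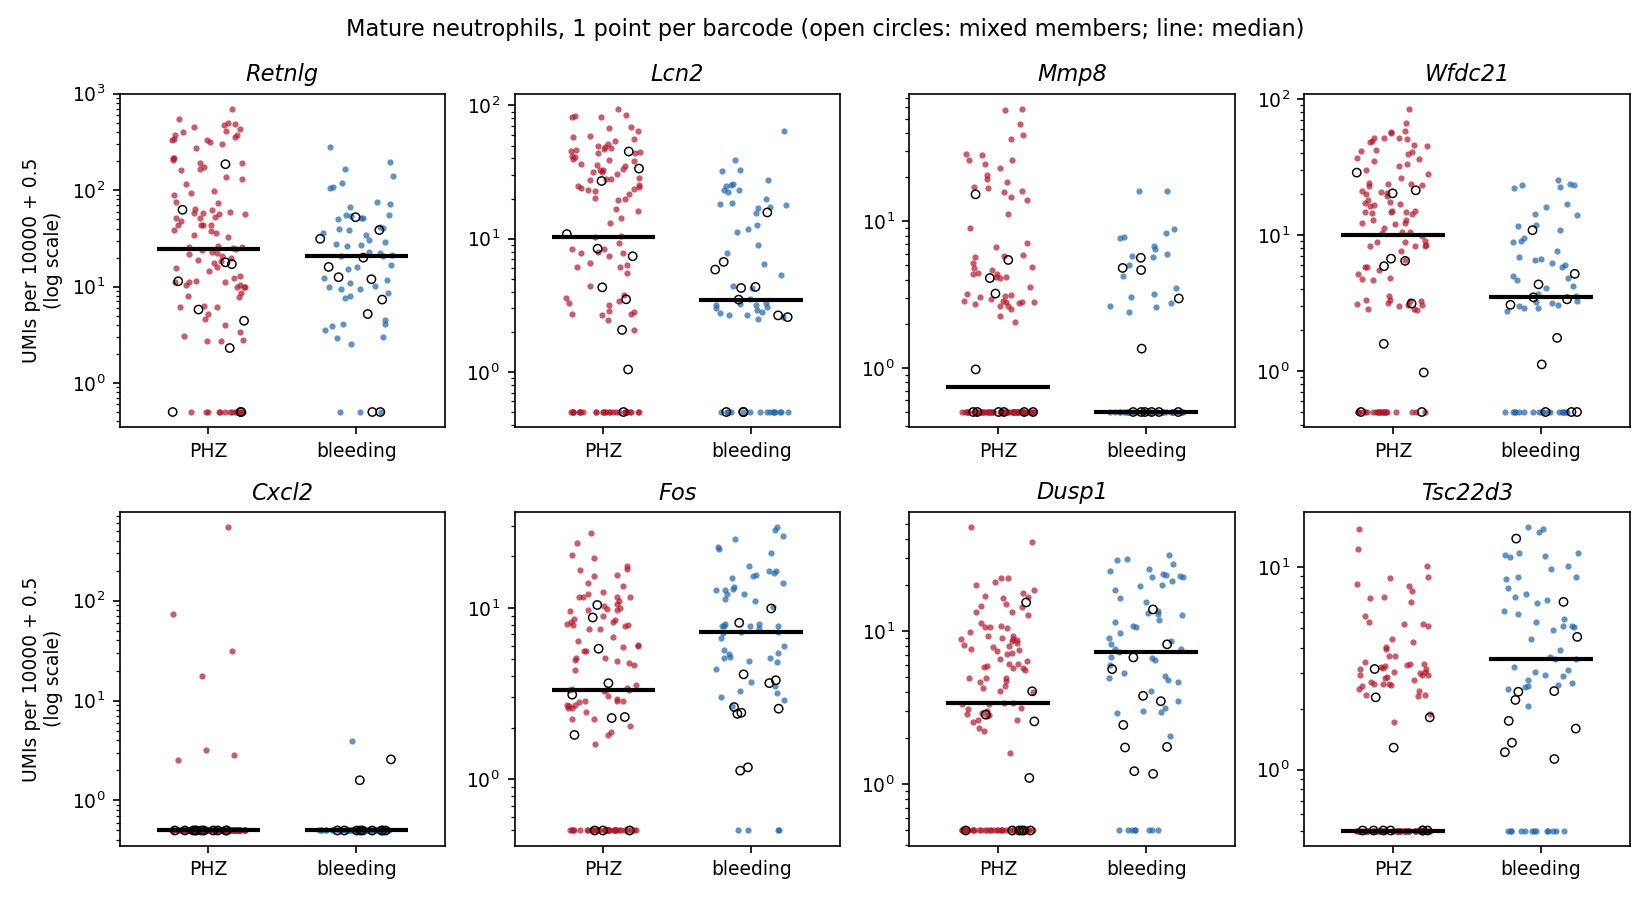
UMIs per 10000 plus 0.5 (log scale) of 8 genes in each member, PHZ left of bleeding in each panel, with mixed members as open circles and medians as black lines. PHZ members extend higher for Retnlg, Lcn2, Mmp8 and Wfdc21, Cxcl2 is high in 4 PHZ members, and Fos, Dusp1 and Tsc22d3 have lower medians in PHZ members.

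Members also differed in how many secondary granule UMIs they still held. The rule allows up to 19 UMIs of Camp, Ngp and Ltf: 12 of 120 PHZ members had 5 or more, against 0 of 67 bleeding members, and 83 PHZ and 57 bleeding members had 0. Values among the 76 PHZ and 49 bleeding members with 0 and without mixed cells are a description only, since that limit was chosen after the values were seen and uses genes of the rule. The log2 ratio was 0.25 (0.13 to 0.37) for Retnlg there, against 1.603 without mixed members alone. That of Mmp8 was 0.25 (-0.32 to 0.83) against 1.96, and that of Lcn2 was 0.51 (0.27 to 0.76) against 1.27. Lyz2, lysozyme of myeloid cells, was at -0.09 (-0.29 to 0.12) against 0.90. The early maturation median was 0.25 against 1.27, and the secondary granule median 0.19 against 1.08. Wfdc21 was at 0.92 (0.61 to 1.23) against 1.57, Ifitm6 at 0.97 (0.24 to 1.74) against 2.27 and Mrgpra2b at 1.52 (0.56 to 2.60) against 2.21.

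Within each library these genes were also set beside the alarmins over members. S100a8, S100a9, Il1b and Csf3r are genes of the rule, which limits the members on each of them, so the values describe only the spread that the rule left. Over the members without mixed cells, 109 with PHZ and 56 with bleeding, a member's share of S100a8 and S100a9 UMIs had a Spearman correlation with Retnlg of 0.67 in PHZ members and 0.60 in bleeding members. For Wfdc21 the values were 0.68 and 0.55, for Lyz2 0.71 and 0.51, and for Lcn2 0.63 and 0.43. Il1b went the other way, at -0.51 and -0.23, as did Srgn, the proteoglycan core of granules and secretory vesicles, at -0.54 and -0.37, and Csf3r at -0.45 and -0.39. Mmp8 was at 0.63 and 0.34, Ifitm6 at 0.56 and 0.37, and Ccl6 at 0.17 and 0.40. Other genes were weaker or differed in sign between the libraries. Mmp9 was at 0.46 and -0.02, Dusp1 at -0.25 and 0.14, and Tsc22d3 at 0.10 and -0.17. Cxcr2, also a rule gene, was at -0.17 and -0.06, Fos at -0.21 and -0.10, and Btg2 at -0.19 and -0.04. Members of a library share its depth, background and total, and shares of 1 cell's RNA constrain each other, so these values describe the spread and carry no test.

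The promoters of 4 of these genes are shown because Retnlg and Lcn2 were higher together and Fos and Dusp1, described below, lower together. Each is the RefSeq window of 250 bases before to 50 after the gene start in GRCm38.p6, written 5' to 3' on the gene's strand, at chr16:48872358-48872657 (plus) for Retnlg, chr2:32387690-32387989 (minus) for Lcn2, chr12:85473640-85473939 (plus) for Fos and chr17:26508423-26508722 (minus) for Dusp1. Capitals mark matches on either strand to the C/EBP letters TTNCNNAA or to TGACGT, part of the cAMP response element TGACGTCA, which holds those 6 letters on both strands.
Retnlg promoter: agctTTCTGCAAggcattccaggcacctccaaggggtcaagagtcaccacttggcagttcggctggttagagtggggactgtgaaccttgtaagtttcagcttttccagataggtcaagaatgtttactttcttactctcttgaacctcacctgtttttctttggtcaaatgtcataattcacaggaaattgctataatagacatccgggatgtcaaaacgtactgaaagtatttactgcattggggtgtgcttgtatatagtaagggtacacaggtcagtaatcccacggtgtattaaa
Lcn2 promoter: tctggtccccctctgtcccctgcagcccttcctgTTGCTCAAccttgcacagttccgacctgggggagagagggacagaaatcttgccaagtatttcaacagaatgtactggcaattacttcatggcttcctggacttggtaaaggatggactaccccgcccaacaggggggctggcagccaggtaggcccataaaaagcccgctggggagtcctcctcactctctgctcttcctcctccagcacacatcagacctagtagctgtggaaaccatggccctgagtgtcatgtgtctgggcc
Fos promoter: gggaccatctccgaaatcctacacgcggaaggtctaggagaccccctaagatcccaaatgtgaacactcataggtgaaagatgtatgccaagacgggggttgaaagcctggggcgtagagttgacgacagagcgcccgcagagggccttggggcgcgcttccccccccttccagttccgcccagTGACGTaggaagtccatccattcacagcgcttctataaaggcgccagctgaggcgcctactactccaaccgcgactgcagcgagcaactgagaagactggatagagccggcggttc
Dusp1 promoter: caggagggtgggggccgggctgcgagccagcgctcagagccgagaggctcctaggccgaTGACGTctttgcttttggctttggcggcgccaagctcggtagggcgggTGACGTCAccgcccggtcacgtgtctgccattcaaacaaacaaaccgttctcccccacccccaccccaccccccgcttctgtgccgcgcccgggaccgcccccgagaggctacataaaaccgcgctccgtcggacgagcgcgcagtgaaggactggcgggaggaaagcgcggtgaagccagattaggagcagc
C/EBP proteins are the transcription factors of granulocyte development. Their letters were in the windows of 9 of the 11 matched genes named as higher in PHZ members and of 3 of the 8 matched genes named as lower, and in 40.7% of all 32851 windows. Those 9 include genes with UMIs in few cells. In each, 3 PHZ members held 97.8% of the UMIs of Chil3, 95.7% of Cxcl2, 67.5% of Ly6c2 and 38.2% of Lyz2. TGACGT was in 0 of the 11 and in 3 of the 8, Dusp1, Fos and H2-Aa, and in 7.51% of all windows. H2-Aa had 2 UMIs in PHZ and 5 in bleeding members without mixed cells. Among genes named without mixed members the C/EBP letters were in 9 of 11 higher and 3 of 7 lower genes. TGACGT was in 0 of those 11 and in 3 of the 7, Ccnd3, Dusp1 and Fos. The 3 windows of Tsc22d3, also lower, held 0 matches to it. Letters of other factors were searched too, over all members. Those of PU.1 were in 3 of 11 higher and 0 of 8 lower genes, and in 3.20% of all windows. NF-kappa B letters were in 1 and 0 genes (0.411% of windows). AP-1 letters were in 0 and 0 (7.81%), and those of the glucocorticoid receptor in 0 and 0 (0.475%). A gene counted if any of its windows matched, so gene counts and shares of windows are unlike measures. A match is a description of the sequence and not of binding.

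Among alarmins and protease inhibitors 14 of 17 tested genes were above 1, with a median log2 ratio of 0.50 and 0.41 without mixed members. S100a8 was at 55445 CPM in PHZ members and 31665 in bleeding members, and S100a9 at 72056 and 51084, both used by the rule. S100a6, a related calcium-binding protein, was at 5046 and 3445 CPM, a ratio of 1.46 (1.37 to 1.57; 1.34 without mixed members). Wfdc17 stood out in this list because it is a late gene: it was at 2475 CPM in PHZ members and 1050 in bleeding members, a ratio of 2.36 (2.10 to 2.65). Without mixed members the ratio was 1.99 (1.76 to 2.25), no longer 2-fold. Its lowest, median and highest levels were 0, 16.1 and 168.2 per 10000 in PHZ members and 0, 3.88 and 190.2 in bleeding members. Among members with no Camp, Ngp or Ltf UMI and without mixed cells its log2 ratio was 1.47 (1.27 to 1.68), against 0.99 without mixed members alone and 1.24 over all members. Slpi, the secretory leukocyte protease inhibitor, was at 2286 and 2213 CPM, and Stfa2l1, a stefin, at 785 and 775 CPM, both with intervals that include 1; without mixed members Slpi was at 0.881 (0.802 to 0.969) and Stfa2l1 at 0.858 (0.733 to 1.01).

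The late maturation genes as a whole were not higher. Of 22 listed 21 were tested, 9 were above 1, and the median log2 ratio was -0.18 and, without mixed members, -0.31. Csf3r was at 3684 CPM in PHZ members and 4572 in bleeding members and Il1b at 3160 and 4475, while Cxcr2 was at 1612 and 1470, all 3 used by the rule. Il1b, the precursor of interleukin-1 beta, had UMIs in 107 of 120 PHZ members and 67 of 67 bleeding members. Srgn was at 3756 CPM in PHZ members and 4539 in bleeding members, a ratio of 0.827 (0.776 to 0.882; 0.775 without mixed members), and Stk17b, a death-associated kinase, at 822 and 1268 CPM, a ratio of 0.648 (0.570 to 0.738; 0.643 without mixed members).

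Receptors differed little. Of 18 cytokine receptors tested 5 were above 1, none was 2-fold apart, and the median was -0.08. Ifnar2, a chain of the type I interferon receptor, was the highest at 1.75 (1.23 to 2.53), from 140 UMIs in PHZ members and 42 in bleeding members, and was picked after its value was seen. Chemokine receptors, selectins and integrins had a median of -0.01, with 6 of 12 above 1. Cxcr4, the marrow retention receptor that rises as neutrophils age, was at 197 CPM in PHZ members and 317 in bleeding members, a ratio of 0.620 (0.477 to 0.809). Itga4, a chain of the VLA-4 integrin, was at 605 and 883 CPM, a ratio of 0.685 (0.588 to 0.799). Fc receptors, complement receptors and clearance signals had a median of -0.02, with Fcer1g at 1612 and 1605 CPM.

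Inflammatory chemokines came from a few PHZ members. Cxcl2, a ligand of Cxcr2 that draws neutrophils (chr5:90903871-90905938, plus strand), had 254 UMIs in PHZ members and 3 in bleeding members. It was found in 7 of 120 PHZ members, 3 of which held 95.7% of its UMIs, and in 3 of 67 bleeding members with 1 UMI each. The 7 PHZ members had 196, 33, 14, 7, 2, 1 and 1 UMIs. The 4 highest also held 100 of 109 PHZ UMIs of Ccl3 and 51 of 79 of Ccl4, chemokines of the CC class, and 57 of 181 of Nfkbia, the inhibitor of NF-kappa B that is itself its target. None of those 4 was a mixed member. The highest of them met the rule only at its limits, with 50 UMIs of S100a8 and S100a9, 2 of Csf3r, Cxcr2 and Il1b, and 0 of Cxcr2 and Retnlg. The next had 394 alarmin UMIs, 18 of Il1b and 27 of Acod1. In bleeding members Ccl3 had 1 UMI and Ccl4 had 2. With at least 5 UMIs of Csf3r, Cxcr2 and Il1b required, which leaves the highest cell out, the log2 ratio of Cxcl2 was 3.39, against 5.47 over all members.

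Acod1 and Nfkbia had UMIs outside those 4 cells as well. Acod1, which makes itaconate in activated myeloid cells, had UMIs in 27 of 120 PHZ members and 9 of 67 bleeding members. It stood at 269 and 44.0 CPM, a ratio of 6.11 (3.60 to 11.1), and of 5.32 (3.09 to 9.94) without mixed members. Outside the 4 cells richest in Cxcl2, PHZ members still had 122 of their 175 Acod1 UMIs. All bleeding members had 15, from a smaller sum of UMIs. The 3 members richest in Acod1 held 51.4% of its UMIs with PHZ, the highest with 39, and 46.7% with bleeding. Nfkbia was at 278 CPM in PHZ members and 109 in bleeding members, a ratio of 2.56 (1.79 to 3.75), and of 5.96 (3.32 to 11.8) without mixed members, where it had UMIs in 40 of 109 and 9 of 56 cells. Both Nfkbia ratios include the 4 cells, which held 57 of its 181 PHZ UMIs. With 200 or more alarmin UMIs required its log2 ratio was 0.64, against 1.36 over all members. Other NF-kappa B genes did not share this: Nfkbiz was at 210 and 238 CPM, Tnfaip2 at 797 and 807, and the list median was -0.10 and, without mixed members, 0.12. Tnf had 18 UMIs in PHZ members and 8 in bleeding members, too few to compare.

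Immediate early genes, which cells switch on within minutes of a stimulus, differed by less than 2-fold over all members. Of 16 tested 4 were above 1, with a median log2 ratio of -0.24 and -0.34 without mixed members, where 2 of 17, Fos and Dusp1, were at least 2-fold lower. Fos, a subunit of the AP-1 factor, ran from 0 through a median of 2.81 to 27.0 per 10000 in PHZ members and from 0 through 6.78 to 29.2 in bleeding members. The ranges coincided, but UMIs were found in 83 of 120 PHZ members and 63 of 67 bleeding members. Its sums were 409 CPM with PHZ and 737 with bleeding, a ratio of 0.555 (0.465 to 0.662) and of 0.488 (0.404 to 0.589) without mixed members. Dusp1, the phosphatase that switches off MAP kinases, was at 444 CPM in PHZ members and 825 in bleeding members, a ratio of 0.538 (0.455 to 0.637) and of 0.487 (0.409 to 0.581) without mixed members. Jund was at 490 and 807 CPM with a ratio of 0.607 (0.515 to 0.716), and Btg2, an antiproliferative gene, at 616 and 948 CPM with a ratio of 0.650 (0.560 to 0.755). Ier3 at 1.52 (1.01 to 2.35) and Gadd45b at 1.71 (1.18 to 2.55) went the other way, and the 4 cells richest in Cxcl2 held 49 of the 121 PHZ UMIs of Gadd45b.

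Tsc22d3 (chrX:140539528-140600659, minus strand), known as GILZ and induced by glucocorticoids, ran from 0 through a median of 0 to 14.9 per 10000 in PHZ members and from 0 through 3.00 to 15.2 in bleeding members. It was found in 57 of 120 PHZ members and 54 of 67 bleeding members. Its sums were 155 CPM with PHZ and 361 with bleeding, a ratio of 0.430 (0.327 to 0.564), with 0.426 without mixed members. Thinned to 1000 UMIs, 17.4% of PHZ and 35.7% of bleeding members without mixed cells had a UMI (unthinned 48.6% and 76.8%), against 8.03% and 9.95% of B cell-marked barcodes. Dennd4a, a Rab exchange factor, was at 707 CPM in PHZ members and 1306 in bleeding members, a ratio of 0.541 (0.474 to 0.618; 0.505 without mixed members). Atf6, a sensor of unfolded protein, had 41 and 51 UMIs, or 63.0 and 150 CPM, a ratio of 0.421 (0.272 to 0.648; 0.393 without mixed members). Background barcodes held Dennd4a at 1037 CPM with PHZ and 709 with bleeding and Atf6 at 102 and 125 CPM, so both genes lay below the background in PHZ members, and its part in these ratios was not tested. In members with no Camp, Ngp or Ltf UMI and without mixed cells the log2 ratio of Tsc22d3 was -1.01 (-1.50 to -0.52), of Fos -0.76 (-1.06 to -0.46) and of Dusp1 -0.53 (-0.81 to -0.24). The rule for named genes was also applied without mixed members, after the data were seen. It added the linker histone Hist1h1c at 182 CPM in PHZ members and 442 in bleeding members, and Hist1h2bc at 224 and 483. It also added Klf3, a repressor of the Krueppel-like family, at 276 and 561, and Ccnd3, a D-type cyclin, at 654 and 1219 CPM. Mpzl3 and Adgre1 were further lower genes so added, and Ccl3, Nfkbia, Syne1 and Cd177 were higher ones.

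Several of the largest ratios among all members came from mixed members. Chil3, a chitinase-like secretory protein of immature neutrophils and monocytes, had 315 UMIs in PHZ members and 0 in bleeding members. S100a4 had 192 and 1 UMIs. The same 3 PHZ cells held 97.8% of the Chil3 and 98.4% of the S100a4 UMIs; they had 58, 141 and 54 UMIs of monocyte markers, 21, 45 and 6 of the monocyte receptor Ccr2, and 6, 5 and 2 of Csf3r, Cxcr2 and Il1b. Without mixed members Chil3 had 6 and 0 UMIs and S100a4 2 and 0. Ly6c2, a surface antigen of monocytes and young granulocytes, had a ratio of 4.26 without them, against 10.1 with them. MHC class II UMIs were likewise concentrated in mixed members of the bleeding library. H2-Ab1 had 41 UMIs in PHZ members and 348 in bleeding members, and 10 and 4 without mixed members, while Cd74, the class II invariant chain, had 211 and 704, and 17 and 7. The 2 bleeding cells richest in H2-Ab1, with 158 and 135 UMIs, held 36 and 32 UMIs of dendritic cell markers. Cst3, cystatin C, had a ratio of 0.533 (0.470 to 0.603) over all members and 0.780 (0.659 to 0.925) without the mixed ones.

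Apoe, the lipid carrier that macrophages make in quantity, was lower in PHZ members with and without mixed cells. It had 59 UMIs in 22 of 120 PHZ members and 91 in 24 of 67 bleeding members, a ratio of 0.339 (0.240 to 0.476), and of 0.269 (0.179 to 0.399) without mixed members. Of 8 red pulp macrophage markers 2 had UMIs in PHZ members and 8 in bleeding members, summing to 535 and 1019 CPM of all UMIs; without mixed members 2 and 5 had UMIs, summing to 611 and 1056 CPM. Most of these sums was Slc40a1, with 300 of 352 UMIs in PHZ members and 221 of 352 in bleeding members. Adgre1 had 52 and 55 UMIs. Without mixed members it had 36 and 39, a ratio of 0.398 (0.246 to 0.642). C1qa, C1qb, C1qc and Vcam1 had 0 UMIs in PHZ members and 21, 8, 18 and 25 in bleeding members, from 3, 2, 3 and 3 cells. Without mixed members the bleeding UMIs were 3, 0, 4 and 3, and the part of these markers in the Apoe result was not tested. Slc40a1, the iron exporter ferroportin, was found in 95 of 120 PHZ members and 59 of 67 bleeding members, at 461 CPM with PHZ and 648 with bleeding, above 38.0 and 116 CPM in the background barcodes. It was 4.24-fold higher in mature than in immature cells with PHZ and 7.60-fold with bleeding. Ferritin did not differ much, with Fth1 at 3733 CPM in PHZ members and 3615 in bleeding members and Ftl1 at 4086 and 3630. The list of haem and iron genes had 7 of 9 above 1 with a median log2 ratio of 0.17, and 4 of 9 with -0.02 without mixed members, while the doublet caller Scrublet took the median to -0.23.

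Antioxidant genes had a median of 0.60, with 11 of 15 above 1. With mixed members left out the median was 0.41, with 9 of 16 above 1. G6pdx, the entry enzyme of the pentose phosphate pathway that supplies NADPH, was at 151 CPM in PHZ members and 52.8 in bleeding members, a ratio of 2.85 (1.71 to 5.01). Slc7a11, the cystine importer, was at 555 and 273 CPM, a ratio of 2.03 (1.61 to 2.58), and Sqstm1, an autophagy receptor and NRF2 target, at 154 and 76.3 CPM, a ratio of 2.01 (1.30 to 3.23). Only some of the other genes were level or lower. Txn1, thioredoxin, was at 1754 and 1696 CPM and Gsr, glutathione reductase, at 2174 and 2491. Nfe2l2, the factor NRF2 itself, was at 289 and 279. The median of this list was 0.24 among members with no secondary granule UMI and without mixed cells. Glycolysis and glucose uptake genes were above 1 for 10 of 11 with a median of 0.38, but 0.22 without mixed members and 0.02 with the secondary granule limit in addition. Gapdh was at 994 CPM in PHZ members and 701 in bleeding members over all members.

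Interferon and translation genes completed the lists. Of 17 type I interferon response genes 11 were above 1, with a median of 0.06 and -0.05 without mixed members, so the list as a whole stayed near the all-gene median. Isg15, a ubiquitin-like modifier, was at 106 CPM in PHZ members and 141 in bleeding members. Irf1, a factor of the interferon gamma response, was at 134 and 241 CPM, a ratio of 0.555 (0.406 to 0.760). Ribosomal protein genes were lower in PHZ members for 76 of 78 with a median of -0.52, and for 55 of 70 with -0.26 without mixed members. With the barcodes called doublets by Scrublet removed the median was -0.01. Cytoskeleton and migration genes were above 1 for 28 of 37 with a median of 0.14, and Actb, beta-actin, was at 7641 and 7163 CPM. The next medians are over all members, with the value without mixed members in brackets. The NADPH oxidase list was at 0.13 (-0.03), tertiary granule and secretory vesicle genes at 0.07 (0.11), and oxidative phosphorylation subunits at 0.07 (-0.11). Pattern recognition and inflammasome genes were at 0.09 (0.01), MHC class I genes at -0.16 (-0.08), and neutrophil transcription factors at 0.00 (-0.12). Suppressor neutrophil genes were at -0.03 (-0.20), survival and death genes at -0.11 (-0.03), heat shock genes at 0.16 (0.17), and cytokines and chemokines at -0.03 (0.05). Hypoxia genes (2 tested) were at 0.23, the stress and unfolded protein response (4 tested) at 0.38, lipid mediator genes (4 tested) at 0.23, the single tested cell cycle gene Hmgb2 at 0.35 (-0.31 without mixed members), the interferon gamma and class II list at -2.67 (-0.23 without mixed members), and no primary granule gene was tested.

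**Figure D5:**
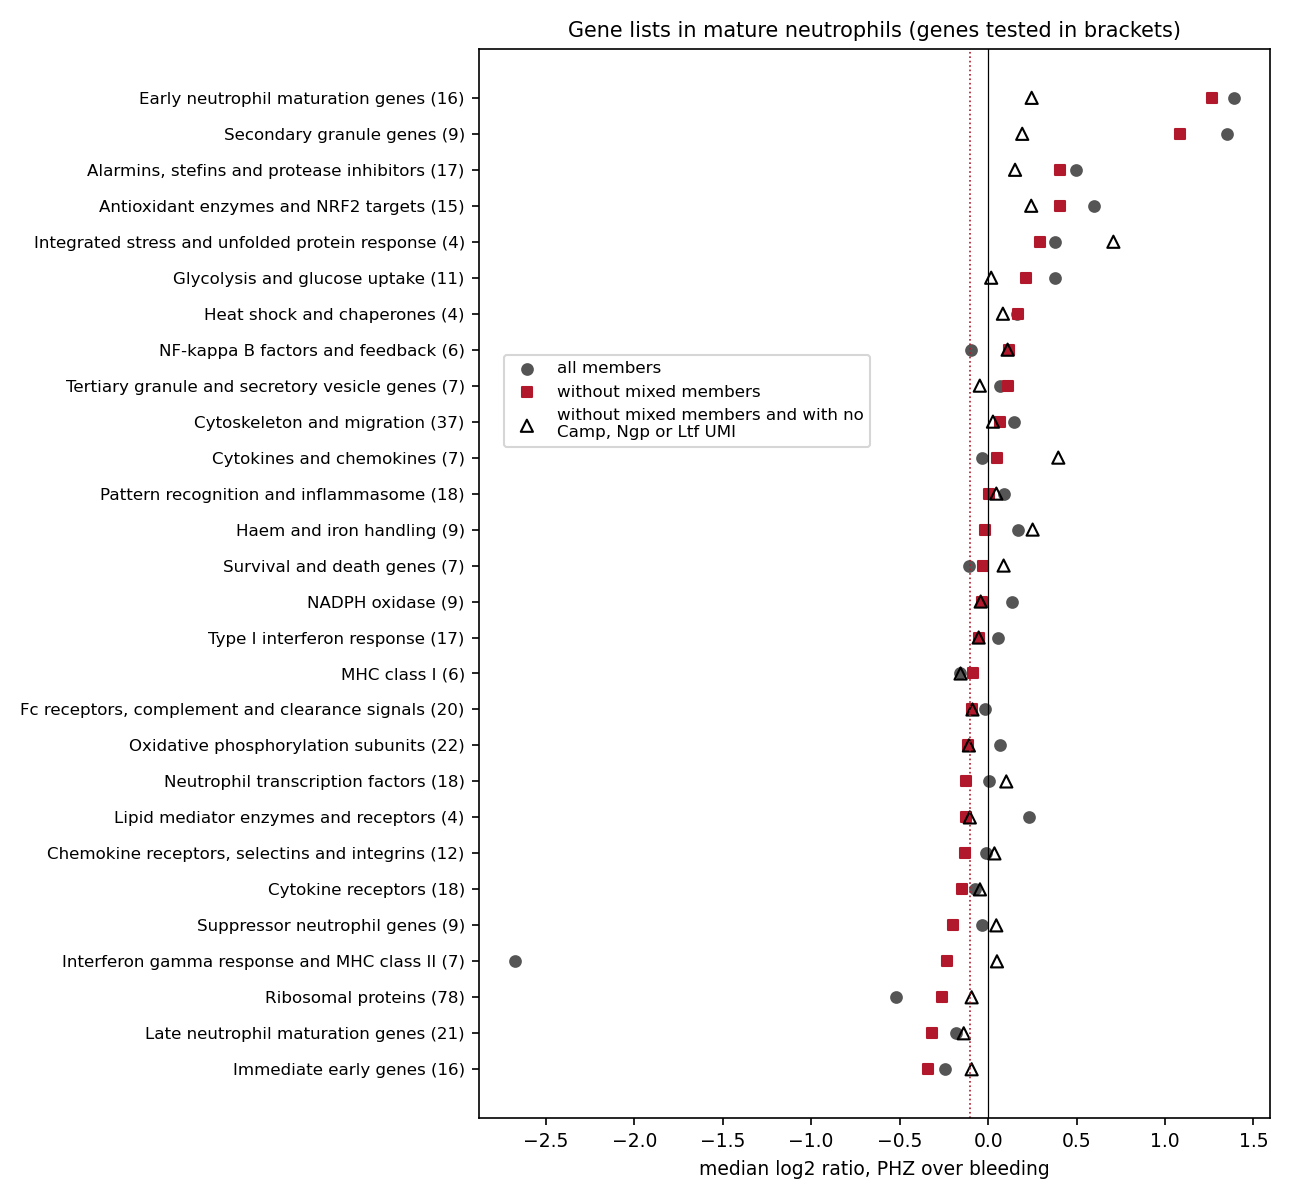
Median log2 ratio of PHZ over bleeding for each gene list with at least 3 genes tested, over all members (circles), without mixed members (red squares) and, in addition, with no Camp, Ngp or Ltf UMI (open triangles); the dotted line is the median of all tested genes without mixed members, -0.10. The early maturation and secondary granule lists lie farthest right at 1.39 and 1.35 over all members and at 0.25 and 0.19 in the strictest set.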

How the data were processed

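The deposited values are UMI counts, whole numbers for every barcode, made by the authors with Cell Ranger 7.0.0 on mouse build mm10 per the submitters' processing notes, while the file headers name version 4; the handling of intronic reads was not given in the sources used here. Both list 32285 genes, of which 32235 matched GENCODE M21 (GRCm38) by identifier. The matrices held 128130213 UMIs (PHZ) and 145260780 (bleeding).

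The members and gene lists were chosen with earlier results of these data known. UMIs were summed over members per library and scaled without haemoglobin genes; ratios carry exact conditional 95% intervals and shares Clopper-Pearson intervals. A gene was tested with a mean of 100 CPM or more and 30 UMIs, and called past 2-fold. No count model was run, since each group had 1 library. Named genes were the 12 per direction with the interval bound nearest 1 farthest out, beyond 1.5-fold, and above the background barcodes of 10 to 100 UMIs; haemoglobin, mitochondrial, ribosomal protein, immunoglobulin, T cell receptor, sex-linked and rule genes were left out. From each list the 3 members with most UMIs and those with a bound beyond 2-fold were named; others in the text were chosen after their values were seen. Some genes that the rule names are not reported here. Mature over immature used 10 per direction. Doublets were scored with Scrublet (scanpy 1.11.5, rate 0.06) for an alternative only, removing 7 of 120 PHZ and 9 of 67 bleeding members. To compare shares of cells with a UMI, cells were thinned to 1000 UMIs. The interval was tested on simulated counts. Python 3.11.15, numpy 2.4.6, scipy 1.17.1 and pandas 2.3.3 were used.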

Additional observations from a re-analysis of the deposited data

Results flagged for a closer look

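Barcodes outside the members met every limit except that on haemoglobin. They numbered 8 with PHZ and 7 with bleeding, with median UMI counts of 19638 and 19072 and median haemoglobin shares of 62.3% and 47.2%. They were left out by the rule, and whether they are neutrophils joined to red cell precursors was not tested.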

How the results depend on the processing

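No paired analysis was possible because each group had 1 library. The ratio of the mature shares of passing barcodes lay between 2.19 and 2.93 over the alternatives run on that share. Genes at least 2-fold lower numbered 56 with 200 or more alarmin UMIs, 18 with at most 8000 UMIs per barcode (chosen after seeing the data) and 62 with background subtracted, against 30. With a level limit of 50 CPM there were 91 higher and 100 lower, with 200 CPM 14 and 10, and with no filter 2820 and 2436. The lipid mediator median, 0.23, turned to -0.10 with Scrublet, -0.13 without mixed members, -0.00723 with no Camp, Ngp or Ltf UMI (like the limit combined with removal of mixed members, and the combined background setting, chosen after seeing the data), -0.10 with both limits, -0.0895 with at most 8000 UMIs, -0.13 with background subtracted and mixed members left out, -0.0356 with equal weight per cell and -0.00469 without the 3 largest members. The class II list turned to 0.0503 with both limits. The log2 ratio of H2-Ab1, -4.02, turned to 0.0832 with Scrublet, 0.11 without mixed members, 0.0562 with both limits and 0.30 with at most 8000 UMIs; that of Cd74, -2.67, to 0.0656 without mixed members and 0.57 with both limits; with both limits Ly6c2 turned to -0.75 and Lyz2 to -0.0852. The cause was not tested beyond the smaller sets of members or genes. Where Chil3 or S100a4 had too few UMIs no value could be given. Of gene values 1811 were counted as unchanged, 254 as moved and 8 as reversed. The count of unchanged values allowed for counting error, so a ratio near 1 could change sign and still be among the 1811. The 8 therefore do not hold every change of direction. Intervals cover counting error only, UMIs of 1 cell are not independent, and 67 bleeding members limit every ratio.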
